A study of Mus musculus with 3 samples.

Results

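A set of 10 GTPase genes that interferon-gamma is known to induce in mouse cells was followed across spleen cells kept with urine or with buffer: the guanylate-binding protein genes Gbp2, Gbp3, Gbp5, Gbp6 and Gbp7, and the immunity-related GTPase (IRG) genes Irgm1, Irgm2, Igtp, Iigp1 and Ifi47. They were taken by gene name from the annotation of the arrays, which gave 10 genes with 15 probes among 36609 genes with 56599 probes. Spleen cells of a male MRL/MpJ mouse aged 6 months were held for 3 h with pooled urine of the strain MRL/MpJ-Faslpr/lpr (called lpr urine), with pooled urine of MRL/MpJ mice, or with phosphate-buffered saline (PBS), and each condition was read on 1 single-colour array. Urine came from 6 male donors per strain aged 6 months, was pooled by strain and was passed through a 0.22 µm filter. All cells carried intact Fas, the gene of a death receptor, and only the urine donors differed at that gene. The lpr mutation disables Fas, and mice that carry it on this background develop lupus-like disease. Each urine was a single pool, and with 1 array per condition no difference below has a replicate check, a standard error or a p-value. What follows describes these 3 arrays.

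Interferon-gamma binds the receptor pair IFNGR1 and IFNGR2, the kinases JAK1 and JAK2 carry the signal on, and transcription factors that include IRF1 turn on the GTPase genes. IRG proteins and guanylate-binding proteins gather on the vacuoles in which intracellular bacteria and parasites live, and break them open. IRGM1, IRGM2 and IGTP (also called IRGM3) are the regulatory IRG proteins, which sit on the cell's own membranes and hold the effector IRG proteins inactive there. Macrophages and other myeloid cells of the spleen are among the cells known to make these proteins, and T cells and NK cells are the main sources of the cytokine.

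Signal on the urine arrays was lower as a whole, which bears on every comparison with PBS. Processed signal had a 75th percentile of 75.7 intensity units with lpr urine, 86.6 with MRL/MpJ urine and 157.5 with PBS, whereas synthetic E1A spike-in transcripts, added in fixed amounts, differed from PBS by a log2 median of -0.06 with lpr urine and 0.03 with MRL/MpJ urine. A level here is the log2 processed signal of a probe minus the 75th percentile of its array, and a difference is that of 2 levels. Under this scaling the median difference of all genes was 0.15 for lpr urine minus PBS and 0.13 for MRL/MpJ urine minus PBS. Scaled on the spike-ins instead, those medians were -0.85 and -0.77, so spike-in values are given beside the values of the members. In RNA from a mixed population, fewer cells of a type and less RNA per cell cannot be told apart. Calls of higher or lower needed a difference of at least 2-fold and a signal that the software itself marked as well above background on each of the arrays compared. All 15 member probes were well above background on all 3 arrays and none was saturated (range 19.8 to 3838 units). The scanner software's error for a difference of 2 arrays was 0.20 to 0.22 log2 units at these probes, and it leaves out the spread between cultures.

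Among the regulatory IRG genes, Irgm2 and Igtp lay far below their PBS values with either urine. The Irgm2 probe (chr11:58036064-58036123, mm9, plus strand) read 128 intensity units with lpr urine, 150.3 with MRL/MpJ urine and 867 with PBS. The 2 urine arrays were close to each other and far under the PBS array. Against PBS, the level of Irgm2 was 3.26-fold lower with lpr urine (log2 difference -1.70) and 3.17-fold lower with MRL/MpJ urine (-1.66). The spike-in-scaled differences were -2.71 and -2.56. Igtp, whose protein is needed to hold down Toxoplasma in mice, read 585 units with lpr urine, 716 with MRL/MpJ urine and 3838 with PBS at chr11:58020927-58020986 (mm9, plus strand). It was again low on both urine arrays, by 3.15-fold in level with lpr urine (-1.66) and by 2.95-fold with MRL/MpJ urine (-1.56), and spike-in scaling gave -2.66 and -2.45. Of all genes measured on both arrays, 3.68% had a lower difference than Irgm2 with lpr urine and 3.62% with MRL/MpJ urine.

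Irgm1, whose loss leaves mice open to mycobacteria and other intracellular pathogens, was read by 4 probes, and they did not move alike. The probe used for the gene, the brightest (chr11:48679069-48679128, mm9, minus strand), read 166 units with lpr urine, 177 with MRL/MpJ urine and 712 with PBS. Against PBS its level was 2.06-fold lower with lpr urine (-1.04) and 2.22-fold lower with MRL/MpJ urine (-1.15). The difference for lpr urine fell short of 2-fold with detected-probe scaling (-0.92) and quantile normalization (-0.94). A second RefSeq probe, at chr11:48679134-48679193, read 114 units with lpr urine, 137 with MRL/MpJ urine and 456 with PBS, and the third, at chr11:48679632-48679691, read 43.9, 61.3 and 178 units on those arrays. These 2 probes kept the order of the first in raw signal. They had differences of -0.94 and -0.96 for lpr urine minus PBS and of -0.87 and -0.67 for MRL/MpJ urine minus PBS, short of 2-fold. Unlike the first probe, they had the lower difference with lpr urine. The fourth probe, annotated with an Ensembl transcript only (chr11:48675495-48675554), read 36.5 units with lpr urine, 27.5 with MRL/MpJ urine and 38.8 with PBS. It stood 0.97 above PBS with lpr urine and 0.36 above it with MRL/MpJ urine. Scaled on the spike-ins, the probe used for the gene differed by -2.04 in each comparison with PBS, and the Ensembl probe by -0.03 with lpr urine and -0.53 with MRL/MpJ urine.

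The effector IRG genes lay on either side of the 2-fold line under 75th percentile scaling, and both were past it on the spike-in scale. Ifi47, which encodes the effector also called IRGD, read 368 units with lpr urine, 399 with MRL/MpJ urine and 2397 with PBS (chr11:48910402-48910461, mm9, plus strand). Against PBS its level was 3.13-fold lower with lpr urine (-1.65) and 3.31-fold lower with MRL/MpJ urine (-1.73), so it stood with Irgm2 and Igtp, and the spike-in-scaled differences were -2.65 and -2.62. Iigp1, which encodes IRGA6, an effector that coats the vacuole of Toxoplasma, read 69.7 units with lpr urine, 76.5 with MRL/MpJ urine and 202 with PBS on its RefSeq probe (chr18:60552153-60552212, mm9, plus strand). That is a difference of -0.48 with lpr urine and -0.54 with MRL/MpJ urine, less than 2-fold, but of -1.48 and -1.43 when scaled on the spike-ins. A second probe under the name Iigp1 carries an Ensembl transcript, lies on the opposite strand and starts 120948 bases away in the array's annotation, and it read 27.2 units with lpr urine, 42.7 with MRL/MpJ urine and 47.4 with PBS. Its differences from PBS were 0.26 and 0.71 (-0.75 and -0.18 on the spike-ins), and whether it reads the same gene was not tested.

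The guanylate-binding protein genes went both ways, and 0 of 5 were called lower by the probe used for the gene under 75th percentile scaling. Gbp2, whose protein carries a lipid anchor and coats vacuoles and freed bacteria, read 43.7 units with lpr urine, 45.1 with MRL/MpJ urine and 127 with PBS (chr3:142300719-142300778, mm9, plus strand). After scaling it differed by -0.48 with lpr urine and -0.63 with MRL/MpJ urine. Gbp3 read 59.9 units with lpr urine, 74.5 with MRL/MpJ urine and 179 with PBS (chr3:142236072-142236131, plus strand), with differences of -0.53 and -0.41. Gbp7, linked in mice to oxidase assembly and autophagy at bacteria-containing vacuoles, read 47.4 units with lpr urine, 54.3 with MRL/MpJ urine and 109 with PBS (chr3:142209379-142209438, plus strand). It differed by -0.14 in each comparison, within the software's error. For these 3 genes the PBS array was the highest in raw signal and the urine arrays were alike, but no scaled difference reached 2-fold. On the spike-in scale all 3 did, with differences of -1.14 to -1.53 for lpr urine and -1.03 to -1.52 for MRL/MpJ urine.

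Gbp5, which encodes a lipid-anchored protein tied to inflammasome activation, was higher or lower depending on the probe. The brighter probe, annotated with an Ensembl transcript (chr3:142181426-142181485, mm9, plus strand), read 216 units with lpr urine, 260.3 with MRL/MpJ urine and 224 with PBS. The other, annotated with a RefSeq transcript and starting 3353 bases further along (chr3:142184779-142184838), read 19.8 units with lpr urine, 28.1 with MRL/MpJ urine and 99.7 with PBS. The first had nearly the same raw signal on all 3 arrays, and the second was highest with PBS. Scaled, the brighter probe differed by 1.00 with lpr urine, just past 2-fold, and by 1.08 with MRL/MpJ urine, while the RefSeq probe differed by -1.28 and -0.96. Gbp6, a member of the second guanylate-binding protein cluster on chromosome 5, read 54.5 units with lpr urine, 63.6 with MRL/MpJ urine and 51.4 with PBS (chr5:105700081-105700140, minus strand). It was the 1 RefSeq-annotated member probe that was not lower in raw signal with urine, and against PBS its level was 2.20-fold higher with lpr urine (1.14) and 2.25-fold higher with MRL/MpJ urine (1.17). With spike-in scaling neither gene was called, with differences for lpr urine and MRL/MpJ urine of 0.00 and 0.19 at the brighter Gbp5 probe and 0.14 and 0.27 at Gbp6.

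**Figure D1:**
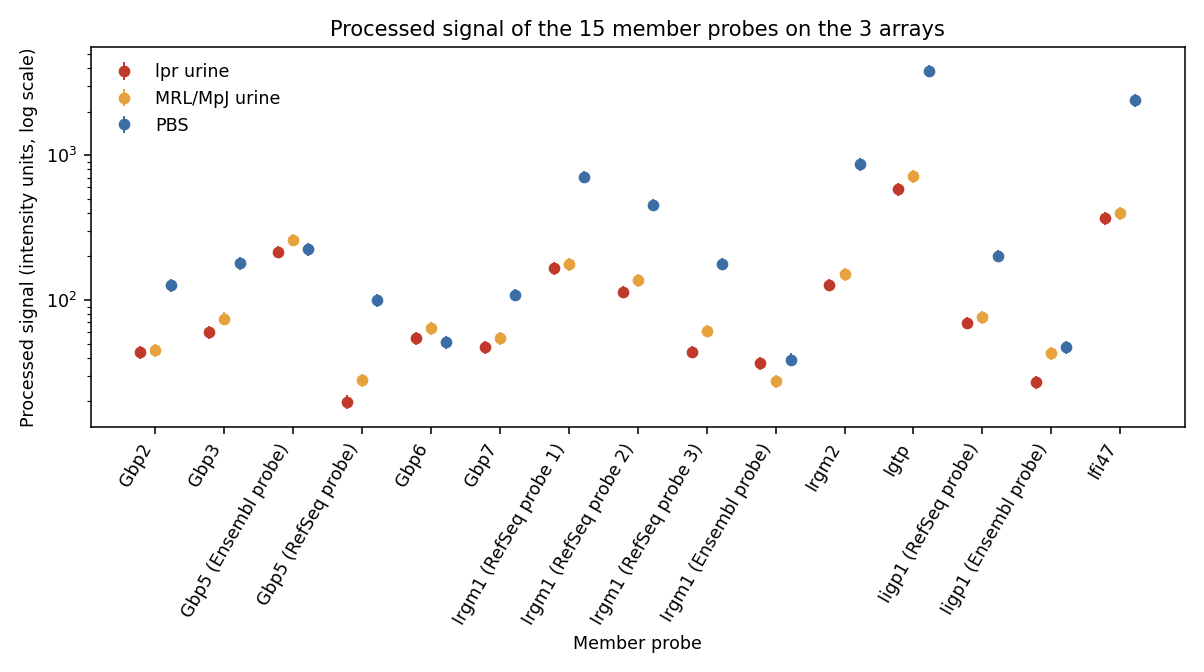
Processed signal in intensity units (log scale) of each of the 15 member probes with lpr urine, MRL/MpJ urine and PBS, 1 array each, with bars for the scanner software's own error. The PBS point stands well above both urine points at Irgm2, Igtp, Ifi47, the 3 Irgm1 RefSeq probes and the Gbp5 RefSeq probe. It is also above them at Gbp2, Gbp3, Gbp7 and the Iigp1 RefSeq probe. The 3 points are close at Gbp6 and at the Ensembl probes of Gbp5 and Irgm1.

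Counted over the genes, 4 of 10 members were at least 2-fold lower with lpr urine than with PBS (Irgm1, Irgm2, Igtp and Ifi47), where 12.0% of 19370 genes were. Another 2, Gbp5 by its Ensembl probe and Gbp6, were at least 2-fold higher, where 18.5% of all genes were, and 4 lay within 2-fold. With MRL/MpJ urine the counts against PBS were 4 lower and 2 higher, where 11.1% of 19639 genes were lower and 16.9% higher, and the same genes made them up. Both comparisons use the same PBS array, so their likeness is not independent evidence. The members had a median difference of -0.50 with lpr urine and -0.58 with MRL/MpJ urine, against 0.15 and 0.13 for all genes. The 5 IRG genes had medians of -1.65 and -1.56, with 4 of 5 lower in each comparison, and the 5 guanylate-binding protein genes medians of -0.14 and -0.14, with 0 of 5 lower. Read from its RefSeq probe, Gbp5 would count as lower with lpr urine (-1.28) and fall short of 2-fold with MRL/MpJ urine (-0.96). Irgm1, Gbp5 and Gbp6 passed 2-fold by less than the software's error, whereas Irgm2, Igtp and Ifi47, at -1.73 to -1.56, passed it by more.

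These counts shift with the scaling. On the spike-in scale 8 of 10 members were lower and 0 higher in each comparison with PBS, where 44.5% of all genes were lower with lpr urine and 40.5% with MRL/MpJ urine. Higher on that scale were 5.50% of all genes with lpr urine and 5.68% with MRL/MpJ urine. The members then had medians of -1.51 and -1.48. The gap between the members' median and that of all genes was -0.65 with lpr urine and -0.71 with MRL/MpJ urine under every scaling by 1 factor per array, as its construction requires. With quantile normalization the gap was -0.55 and -0.61, and with normexp background correction -0.55 and -0.54.

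**Figure D2:**
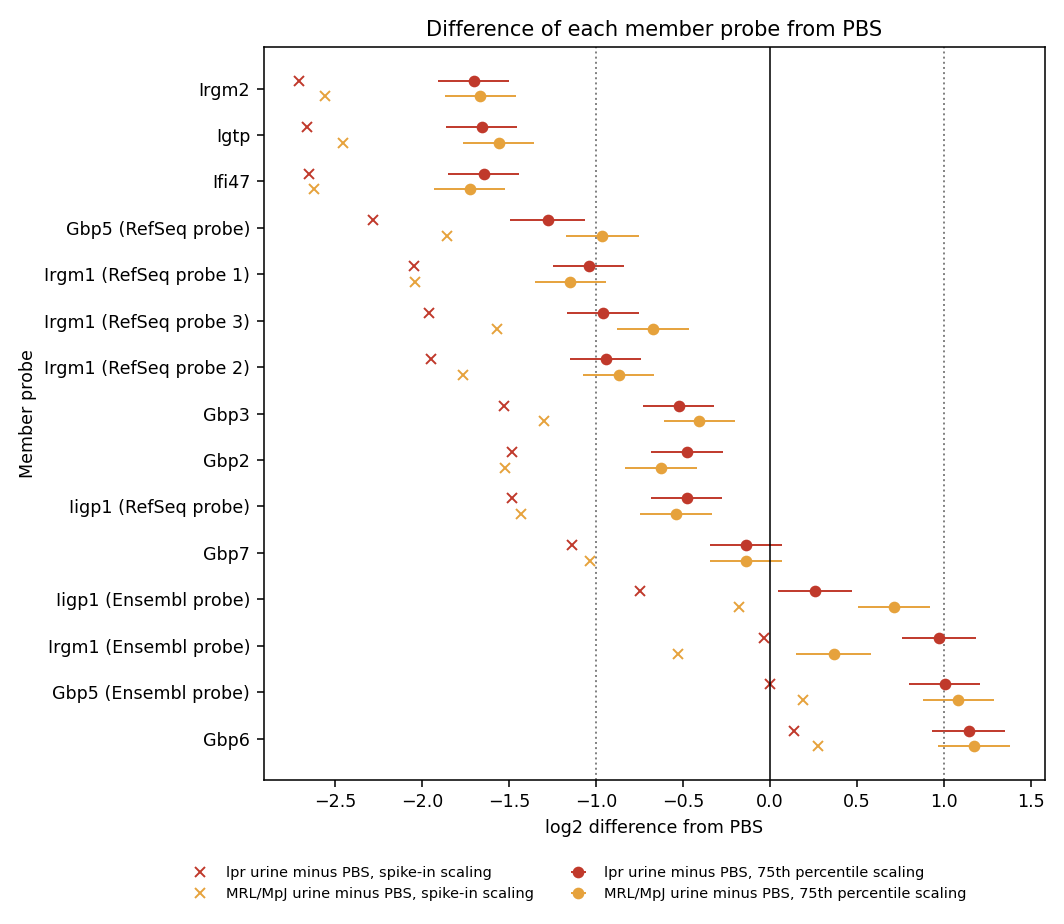
Log2 difference from PBS of each member probe, for lpr urine (above in each pair) and MRL/MpJ urine, under 75th percentile scaling (circles, with the scanner software's error) and spike-in scaling (crosses), with dotted lines at 2-fold. Irgm2, Igtp and Ifi47 lie below -1.5 with either urine, and the 3 Ensembl probes and Gbp6 lie above 0 under 75th percentile scaling but at 0.27 or less under spike-in scaling.

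**Figure D3:**
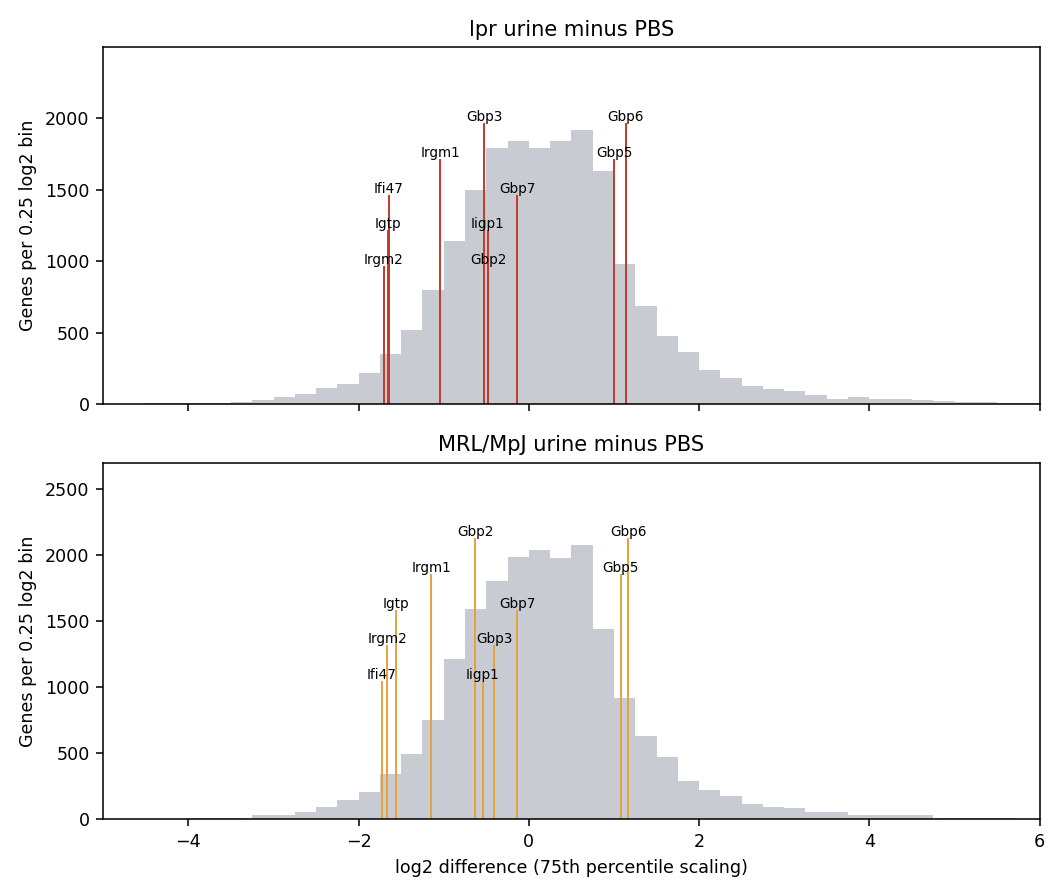
Number of genes per 0.25 log2 bin of difference from PBS, for lpr urine (upper panel) and MRL/MpJ urine (lower panel), over genes well above background on both arrays, with the 10 member genes marked by lines whose heights carry no value. The 3 lowest members, Irgm2, Igtp and Ifi47, lie in the lower tail at -1.73 to -1.56, and Gbp5 and Gbp6 lie right of the centre at 1.00 to 1.17.

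Under 75th percentile scaling the member probes differed by annotation. All but 1 of the 12 RefSeq-annotated member probes (11 of 12) had a difference below 0 in each comparison with PBS, with medians of -0.95 for lpr urine and -0.77 for MRL/MpJ urine, and Gbp6 was the exception. Of the 3 Ensembl-annotated probes (Gbp5, Irgm1 and Iigp1), 0 lay below 0 under that scaling, but in unscaled signal 3 did with lpr urine and 2 with MRL/MpJ urine, and the Irgm1 and Iigp1 probes did on the spike-in scale. For these 3 genes the Ensembl probe stood above the RefSeq probe by 2.28 (Gbp5), 2.01 (Irgm1) and 0.74 (Iigp1) in the difference for lpr urine, and by 2.05, 1.51 and 1.25 in that for MRL/MpJ urine. Such gaps were common on the array: of 2315 genes with both kinds of probe measured on all arrays, the Ensembl probe was more than 1 log2 unit above the RefSeq probe in 20.4% for lpr urine and 19.7% for MRL/MpJ urine, and more than 1 unit below it in 19.2% and 18.1%.

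Between the urines the members differed little. For lpr urine minus MRL/MpJ urine, 0 of 10 members were called in either direction, where 0.0600% of 20014 genes were at least 2-fold lower and 0.340% higher. The gene differences ran between -0.12 (Gbp3) and 0.15 (Gbp2) with a median of -0.01. Irgm2, Igtp and Ifi47 differed by -0.04, -0.10 and 0.08, each less than the software's error. The widest difference at any member probe was 0.60, at the dim Ensembl probe of Irgm1, and the second Iigp1 probe differed by -0.46. Repeated spots of a probe within an array would give a difference of 2 arrays an SD of 0.18 between 16 and 64 units, where those probes lie, and of 0.10 between 256 and 1024 units. With a single array per urine, nothing here bears on whether the members differ between the strains' urines in other pools.

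Of these GTPases, 8 had an entry in the RefSeq promoter table (build GRCm38.p6), and Gbp6 and Iigp1 had none. The 250 bases before each start were searched on both strands for GAS, the gamma-interferon-activated site (TTCNNNGAA), and for ISRE, the site of interferon regulatory factors and of the type I interferon complex (GAAA, any 2 bases, GAAA). The 8 members had 9 promoter entries, because Gbp3 had a second entry, which held 0 matches of either motif. ISRE was found in 7 of 8 members (7 of 9 entries) and in 2.98% of 32851 promoter entries. GAS was found in 4 of 8 members (4 of 9 entries) and in 7.02% of promoter entries. Those 4 members (Irgm2, Igtp, Gbp5 and Gbp7) held both motifs, as 0.332% of promoter entries did. The windows of the 3 regulatory IRG genes, of Ifi47, which was low without a match, and of Gbp5 and Gbp7, which held both motifs and were not called lower by the probes used, are printed 5′ to 3′ on the gene's strand, with motif matches in capitals. An ISRE match on the other strand reads TTTC, 2 bases, TTTC. They are chr11:58214727-58214976 (plus strand) for Irgm2, chr11:58199306-58199555 (plus) for Igtp, chr11:48871421-48871670 (minus) for Irgm1, chr11:49076337-49076586 (plus) for Ifi47, chr3:142496684-142496933 (plus) for Gbp5 and chr3:142530086-142530335 (plus) for Gbp7.
Irgm2: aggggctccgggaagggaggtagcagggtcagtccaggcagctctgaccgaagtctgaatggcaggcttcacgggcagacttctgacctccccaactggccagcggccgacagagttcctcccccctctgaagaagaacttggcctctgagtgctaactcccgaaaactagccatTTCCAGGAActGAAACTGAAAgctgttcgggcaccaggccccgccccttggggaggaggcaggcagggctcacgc
Igtp: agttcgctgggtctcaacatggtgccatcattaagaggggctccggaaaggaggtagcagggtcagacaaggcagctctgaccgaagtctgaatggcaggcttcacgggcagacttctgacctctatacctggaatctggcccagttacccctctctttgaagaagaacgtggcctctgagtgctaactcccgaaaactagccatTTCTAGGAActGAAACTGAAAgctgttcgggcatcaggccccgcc
Irgm1: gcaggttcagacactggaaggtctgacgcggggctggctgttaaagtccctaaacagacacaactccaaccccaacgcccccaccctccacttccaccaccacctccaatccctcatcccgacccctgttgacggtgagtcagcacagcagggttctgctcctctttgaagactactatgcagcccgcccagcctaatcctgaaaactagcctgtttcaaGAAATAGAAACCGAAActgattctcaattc
Ifi47: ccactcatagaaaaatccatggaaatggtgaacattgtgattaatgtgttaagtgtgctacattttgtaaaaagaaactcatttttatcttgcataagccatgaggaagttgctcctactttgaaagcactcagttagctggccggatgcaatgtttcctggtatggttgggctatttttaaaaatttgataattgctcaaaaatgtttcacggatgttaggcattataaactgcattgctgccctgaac
Gbp5: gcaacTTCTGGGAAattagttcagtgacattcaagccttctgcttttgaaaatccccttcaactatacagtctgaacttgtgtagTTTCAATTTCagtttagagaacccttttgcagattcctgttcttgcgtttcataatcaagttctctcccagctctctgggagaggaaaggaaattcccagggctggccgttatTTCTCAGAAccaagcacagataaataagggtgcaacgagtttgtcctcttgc
Gbp7: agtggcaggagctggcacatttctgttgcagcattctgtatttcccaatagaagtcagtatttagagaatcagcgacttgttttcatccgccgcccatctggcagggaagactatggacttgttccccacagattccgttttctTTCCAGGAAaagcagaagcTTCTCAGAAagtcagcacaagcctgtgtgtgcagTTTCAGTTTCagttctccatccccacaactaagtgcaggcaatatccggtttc

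The Irgm2 and Igtp windows are near-copies. They share an unbroken run of 55 bases, and their local alignment spans 221 columns with 197 identical bases (89.1%), whereas the other 27 pairs of member windows share runs of 6 to 13 bases and align over 7 to 52 columns. The aligned stretch holds a GAS match in each gene and, 2 bases after it, an ISRE match, which start 75 and 64 bases before the start of Irgm2 and 45 and 34 bases before that of Igtp. Gbp5 and Gbp7 hold the same kinds of motif further apart, with 71 and 25 bases between the nearest GAS and ISRE. Irgm1 holds 2 overlapping ISRE matches that begin 30 and 24 bases before its start, Gbp3 holds 2 overlapping ones, and Gbp2 holds 1. Members with a match stood on either side of the 2-fold line, and a member without one stood below it. A match is a run of letters and says nothing of binding in these cells, and the lack of one says only that these letters are not in the window.

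**Figure D4:**
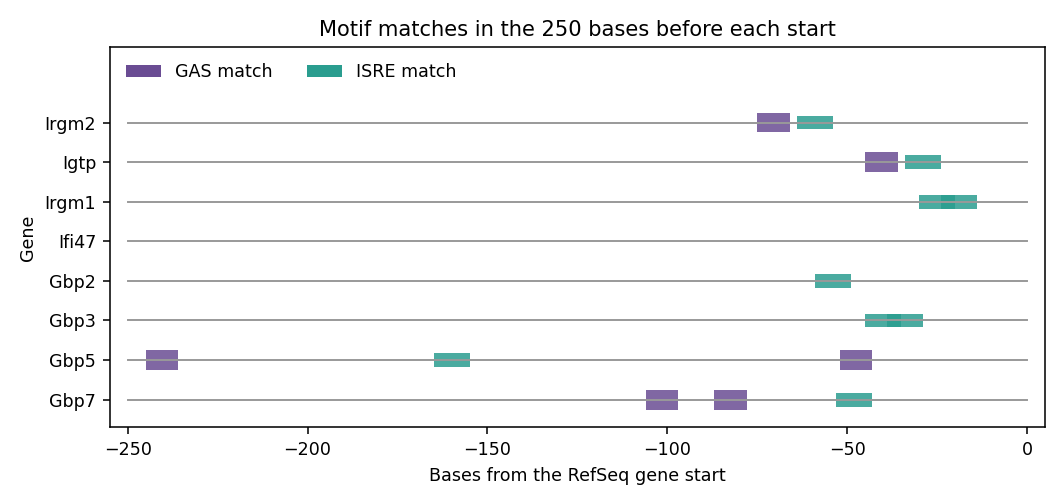
Matches of the GAS and ISRE motifs in the 250 bases before the first RefSeq start of 8 members, in bases from that start, with wide boxes for GAS and narrow ones for ISRE. Irgm2 and Igtp hold a GAS match directly followed by an ISRE match within 75 bases of the start, and Ifi47 holds neither motif.

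Upstream of the GTPases, the cytokine was higher and its receptor lower. Ifng, the interferon-gamma gene, read 444 units with lpr urine and 360.1 with MRL/MpJ urine, against 56.3 with PBS, a level 16.4-fold higher with lpr urine (4.04) and 11.6-fold higher with MRL/MpJ urine (3.54). It stayed higher on the spike-in scale, at 3.04 and 2.65. Ifngr1, the ligand-binding receptor chain, read 747 units with lpr urine and 941 with MRL/MpJ urine, against 7637 with PBS, and was 4.91-fold and 4.46-fold lower in level (-3.30 and -3.05 on the spike-ins). Ifngr2, the signalling chain, was 2.61-fold and 2.48-fold lower (306 units with lpr urine, 369 with MRL/MpJ urine and 1664 with PBS), or -2.39 and -2.20 on the spike-ins. Thus both receptor genes were below PBS on the same arrays on which the cytokine gene was above it.

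The transcription factor genes Irf1 and Irf8 were below PBS on the probes used, and less so on their other probes. Irf1, which interferon-gamma induces and whose product acts on the GTPase genes, read 1117 units with lpr urine, 1228 with MRL/MpJ urine and 7301 with PBS, and differed by -1.65 and -1.71 (-2.65 and -2.60 on the spike-ins). Its other probe differed by -0.03 and -0.30. Irf8, a myeloid and B cell partner of IRF1, differed by -0.84 and -0.73, and by -0.39 and -0.23 on its other probe. Socs1, the feedback inhibitor of the receptor, differed by -0.04 and 0.20. Of the 13 genes of the signal chain, 1 was higher (Ifng) and 3 lower (Ifngr1, Ifngr2 and Irf1) with either urine, with medians of -0.32 and -0.34. Scaled on the spike-ins, 9 of 13 were lower with either urine. Of all genes, 18.5% were higher and 12.0% lower with lpr urine, and 16.9% and 11.1% with MRL/MpJ urine. On the spike-in scale 5.50% were higher and 44.5% lower with lpr urine, and 5.68% and 40.5% with MRL/MpJ urine. The counts of every list below are to be read beside these shares.

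**Figure D5:**
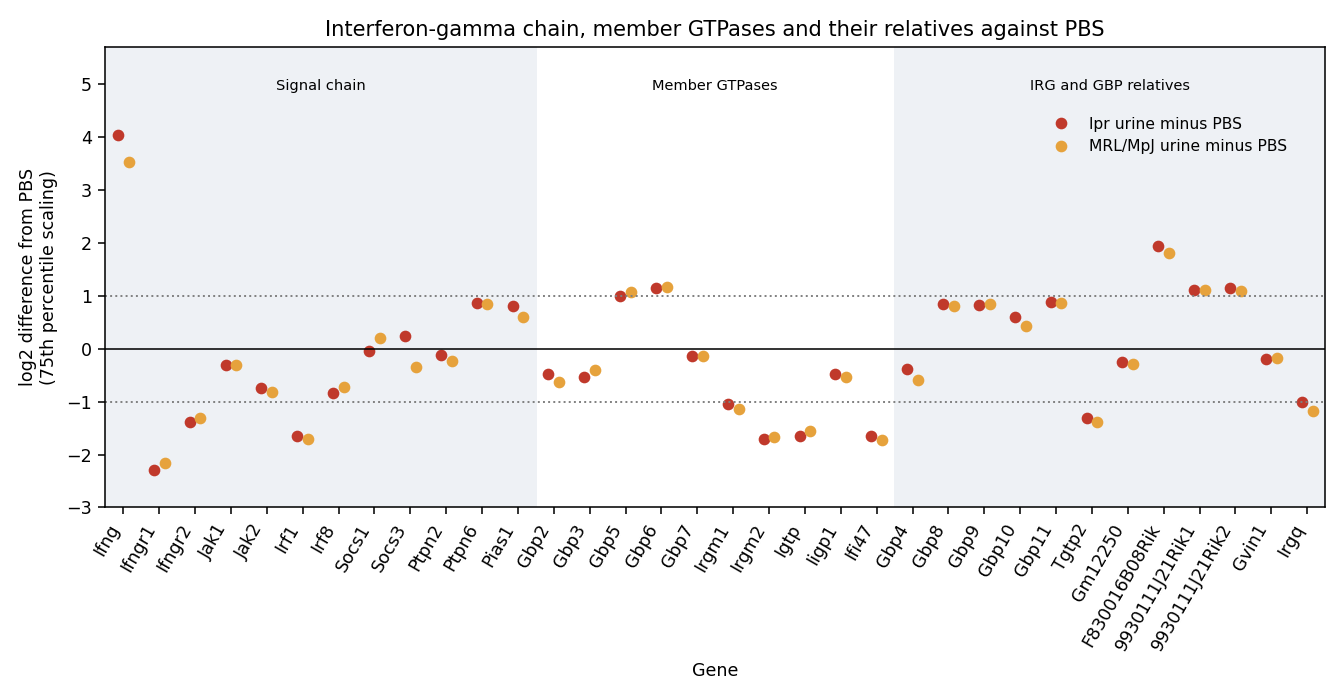
Log2 difference from PBS (75th percentile scaling) for lpr urine (left in each pair) and MRL/MpJ urine, over genes of the signal chain, the 10 members and their relatives that were well above background on all 3 arrays, with dotted lines at 2-fold. Ifng stands highest, at 4.04 and 3.54, Ifngr1 lowest, at -2.30 and -2.16, and the members lie between -1.73 and 1.17.

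Genes that lead to interferon-gamma went both ways. The interleukin-12 receptor genes Il12rb1 (44.4 units with lpr urine, 49.1 with MRL/MpJ urine and 24.0 with PBS) and Il12rb2 were higher, by 1.94 and 1.37 with lpr urine and by 1.89 and 1.46 with MRL/MpJ urine. Stat4, the factor through which interleukin-12 acts on Ifng, was lower, by 3.76-fold and 3.61-fold. Il12a, a subunit gene of the cytokine itself, was called lower with lpr urine (-1.14) and was short of it with MRL/MpJ urine (-0.89). Of 13 such genes measured with lpr urine and PBS, 3 were higher and 2 lower (median 0.54), and of 12 with MRL/MpJ urine and PBS, 3 were higher and 1 lower (0.32), but on the spike-in scale 1 was higher and 5 lower with lpr urine, and 2 were higher and 4 lower with MRL/MpJ urine. Ifng itself is in this list, as 1 of the 3 higher genes and as the 1 still higher with lpr urine on the spike-ins. Among all genes, 18.5% were higher and 12.0% lower with lpr urine, and 16.9% and 11.1% with MRL/MpJ urine. On the spike-ins 44.5% and 40.5% of all genes were lower and 5.50% and 5.68% higher. Most counts of this short list are not far from those shares.

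Relatives of the members outside the set went both ways. Tgtp2, an effector IRG gene whose probe is also annotated to its near-identical copy Tgtp1, read 595 units with lpr urine, 649 with MRL/MpJ urine and 3087 with PBS, and was 2.49-fold and 2.61-fold lower. F830016B08Rik, an IRG-like gene, was above PBS by 3.85-fold with lpr urine and by 3.49-fold with MRL/MpJ urine (6731 units with lpr urine, 6984 with MRL/MpJ urine and 3634 with PBS). The IRG-like genes 9930111J21Rik1 and 9930111J21Rik2 were higher as well, by 1.11 and 1.15 with lpr urine and by 1.10 each with MRL/MpJ urine, but their lowest probes stood at 0.66 and -0.10 with lpr urine and at 0.55 and 0.06 with MRL/MpJ urine. Irgq was called lower with either urine, at the threshold with lpr urine and by 1.18 log2 units with MRL/MpJ urine, and Gm4951, not well above background with lpr urine, was lower by 1.18 log2 units with MRL/MpJ urine. Gbp8, Gbp9, Gbp10 and Gbp11, neighbours of Gbp6 in the second cluster, differed by 0.59 to 0.89 with lpr urine and 0.42 to 0.86 with MRL/MpJ urine and so stood on the side of Gbp6, below 2-fold, but at -0.47 to -0.03 on the spike-in scale. Gbp4, of the same cluster, differed by -0.39 and -0.58. The annotation of the Gbp9 and Gbp10 probes also lists the Gbp6 transcript, so these probes can share signal. In all, 3 of 12 relatives were higher and 2 lower with lpr urine (median 0.59), and 3 of 13 were higher and 3 lower with MRL/MpJ urine (0.42). Where probes were averaged 1 relative was higher with either urine. With spike-in scaling 0 were higher, and 5 and 6 were lower. The shares of all genes were 18.5% higher and 12.0% lower with lpr urine, and 16.9% and 11.1% with MRL/MpJ urine. On the spike-in scale 44.5% and 40.5% of all genes were lower, which is near the counts of the relatives.

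Other interferon-gamma targets were mixed. Antiviral targets of type I interferon that were called stood above PBS under 75th percentile scaling, but on the spike-in scale more were lower than higher. Of 16 other interferon-gamma targets, 1 was higher and 4 lower with lpr urine (median -0.01), and of 17 with MRL/MpJ urine, 2 were higher and 5 lower (-0.13). Lower with either urine were Cxcl10, a T cell chemoattractant (-1.10 and -1.40, though its other probe stood at 2.41 and 2.18), the checkpoint ligand gene Cd274 (-1.03 and -1.15), the tRNA synthetase gene Wars (-1.28 and -1.12) and the surface protein gene Ly6a (-1.39 and -1.11). Upp1, of uridine metabolism, was lower by 2.90 log2 units with MRL/MpJ urine and was not well above background with lpr urine. Ciita, which encodes the MHC class II transactivator, was higher by 1.59 and 1.77, with probes from -0.24 and 0.34 up, and Cxcl9 was called higher with MRL/MpJ urine alone (1.26, against 0.57 with lpr urine). With spike-in scaling 0 were higher, and 7 were lower with lpr urine and 8 with MRL/MpJ urine. Among all genes, 18.5% were higher and 12.0% lower with lpr urine, and 16.9% and 11.1% with MRL/MpJ urine. On the spike-in scale 44.5% and 40.5% of all genes were lower. No test of the difference between the urines was possible for these genes.

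Of 20 type I interferon targets, 8 were higher and 0 lower with lpr urine (median 0.53), and 8 were higher and 0 lower with MRL/MpJ urine (0.94), but on the spike-in scale 3 were higher and 5 lower with either. Isg15, a ubiquitin-like antiviral modifier, read 3636 units with lpr urine, 4960.4 with MRL/MpJ urine and 552 with PBS, and was 13.7-fold and 16.3-fold higher. Mx1, which encodes an antiviral GTPase of the dynamin superfamily, to which guanylate-binding proteins also belong, read 27.7 units with lpr urine, 29.7 with MRL/MpJ urine and 6.67 with PBS, and was 8.64-fold and 8.10-fold higher from a dim PBS value. Oas2 (2.81 and 2.90) and Cmpk2 (1.36 and 1.65) were higher too. Under 75th percentile scaling 5 of the 20 lay below PBS with lpr urine and 6 with MRL/MpJ urine, all within 2-fold. Oasl1 was the lowest of these (-0.84 and -0.90). Among all genes, 18.5% and 16.9% were higher and 12.0% and 11.1% lower. On the spike-in scale 5.50% and 5.68% of all genes were higher and 44.5% and 40.5% lower. Of the type I receptor and its signalling genes, Ifnar2 differed by -0.73 and -0.68, Irf9 by -0.63 and -0.52, and Tyk2 by 0.69 and 0.78 on its brightest probe against -1.26 and -1.51 on its lowest.

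The machinery with which the GTPases work did not shift as a block. For comparison, 18.5% of all genes were higher and 12.0% lower with lpr urine, and 16.9% and 11.1% with MRL/MpJ urine. On the spike-in scale 44.5% and 40.5% of all genes were lower and 5.50% and 5.68% higher. The ATG8 conjugation genes, which steer IRG and guanylate-binding proteins to vacuoles, had 2 of 10 higher and 1 lower with either urine, with medians of 0.07 and -0.00. Gabarapl1, an ATG8 family gene, was below PBS by 4.77-fold with lpr urine and by 3.81-fold with MRL/MpJ urine, and Atg16l1, of the conjugating complex, was higher by 2.21 and 2.24 on its brightest probe but ranged over 4 probes down to -0.64 and -0.71. Map1lc3a was higher by 1.07 and 1.04, and Atg12 differed by -0.92 and -0.90. Of 8 genes linked to ubiquitin on vacuoles, 3 were higher with either urine, and 3 were lower with lpr urine and 2 with MRL/MpJ urine. Among the higher ones, Ubb differed by 1.46 and 1.36 and Rnf213 by 1.78 and 1.69. Lower ones were Traf6 (-2.48 and -2.51, with probes up to -0.20 and 0.16), Sqstm1 (-1.09 and -1.13, with probes up to 3.00 and 3.41) and, with lpr urine, Nbr1 (-1.21, against -0.80 with MRL/MpJ urine). On the spike-in scale 5 of 10 ATG8 genes were lower with either urine and 1 was higher, and Ubb and Rnf213 stood at 0.46 and 0.78 with lpr urine and at 0.47 and 0.80 with MRL/MpJ urine, less than 2-fold.

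Another list held 6 genes that attach or process the lipid anchor carried by some guanylate-binding proteins. Of these, 2 were lower with lpr urine and 1 with MRL/MpJ urine, with medians of -0.68 and -0.71. Pggt1b, a subunit of the geranylgeranyl transferase, was lower by 1.97 log2 units with lpr urine and 1.40 with MRL/MpJ urine, and Rce1, which trims the prenylated tail, differed by -1.01 and -0.86. The farnesyl transferase genes Fnta (-0.49 and -0.56) and Fntb (-0.86 and -0.94) were within 2-fold. Among 9 inflammasome partners, 2 were higher (Pycard and Gsdmd) and 1 lower (Casp4) with either urine, with medians of 0.78 and 0.54. Casp4, the sensor of cytosolic lipopolysaccharide that guanylate-binding proteins feed, was 2.90-fold and 2.83-fold lower, Gsdmd, the pore gene, was 2.31-fold and 2.30-fold higher, and Il18 differed by 0.89 and 0.99. Pycard, the adaptor gene, stood at 8.45 and 8.20 on its brightest probe and at 0.49 and 0.36 on its other one. On the spike-in scale 5 and 4 of the 6 lipid anchor genes were lower and 0 higher, and 1 of the 9 inflammasome genes was higher and 2 and 3 were lower. Among all genes, 18.5% were higher and 12.0% lower with lpr urine, and 16.9% and 11.1% with MRL/MpJ urine. On the spike-in scale 44.5% and 40.5% of all genes were lower and 5.50% and 5.68% higher. Nlrp3 was the 1 gene of all these lists called between the urines, higher with lpr urine by 1.03 on a dim probe (15.4 units with lpr urine and 8.64 with MRL/MpJ urine), but by 0.92 and so not called on the spike-in scale.

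Among the markers of the cell types a spleen can hold, only those of NK cells and the single measured urinary tract marker had medians below 0 under 75th percentile scaling, while on the spike-in scale those of monocytes and macrophages alone, of all 9 lists, lay above 0. The monocyte and macrophage markers were well above background for 7 of 7 genes on each array. Their unscaled signals summed to 6626 units with lpr urine and 7075 with MRL/MpJ urine, against 7480 with PBS. Most of each sum came from Ly6c2 (4904, 5321 and 5421 units in that order). Under 75th percentile scaling their median difference was 1.01 in each comparison, and on the spike-in scale 0.01 and 0.12. The B cell markers were measured for 7 of 7 genes, with medians of 0.84 and 0.85, and the T cell markers for 6 of 7, with medians of 0.27 and 0.14. The NK cell markers, measured for 6 of 6, had unscaled sums of 1226 units with lpr urine and 1453 with MRL/MpJ urine, against 3387 with PBS. Klrd1 gave the largest part (646, 777 and 2143 units). The NK medians were -0.53 and -0.43, and -1.53 and -1.32 on the spike-in scale. Under 75th percentile scaling 0 were called lower and 1 higher (Ncr1, 1.17 and 1.26), where 12.0% and 11.1% of all genes were lower and 18.5% and 16.9% higher. On the spike-ins 4 were lower and 0 higher, where 44.5% and 40.5% of all genes were lower. Dendritic cell markers had medians of 0.08 and 0.18 (5 of 6 measured), neutrophil markers 0.55 and 0.32 and erythroid markers 0.68 and 0.51 (6 of 6 each). Endothelial and stromal markers were above background for 2 of 6 genes with lpr urine, 1 with MRL/MpJ urine and 3 with PBS, and urinary tract epithelium markers for 1 of 6 on each array. No marker read exactly 0. The part of cell composition in the differences of the members was not tested.

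The genes nearest to the members' median pattern over the 3 arrays, among 9183 named genes measured on all of them, were Mrpl38, Anp32e, Klhl26, Ints12 and Rnf138. Their pairs of differences from PBS lay 0.0081 to 0.013 log2 units from the median pair of the members (-0.50 and -0.58). The members themselves lay 0.050 to 2.40 units from it, so the median describes few of them.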

How the data were processed

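The deposited values are Agilent 1-colour arrays of design 074809 (Cy3), 3 arrays of 1 slide and 1 scan, for which Feature Extraction 12.0.3.1 gave the values, per the file headers and the submitters' processing notes. Per the file headers, the processed signal is an intensity after background subtraction within the array, and mean and background signals are unprocessed intensity values. Labelled RNA was made from 0.05 µg of total RNA and wells held 500 µL of medium, per the labels' protocols. Probe positions are the mm9 ones of the headers, 1-based. No mm9 gene model was used here, so exons and UTRs are not stated.

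Control and outlier spots were left out, repeated spots averaged, and log2 signal taken minus the 75th percentile of the array. A gene was read from the probe well above background on most arrays, ties to the brightest. Differences of at least 2-fold were counted, and no test was possible with 1 array per condition. Alternatives were median, E1A spike-in (10 probes), detected-probe and quantile scaling, normexp (offset 50), the mean of probes, a filter at 4 times the lowest measured signal, a 1.5-fold threshold, and, added after seeing the data, the RefSeq probe.

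The members and lists were chosen with earlier results of these data known. Of 123 pathway list entries, synonyms merged, 122 were found, and Psme2 was not used here. Some list genes are not reported here by name. Named genes were the members, up to 4 per list with the largest difference, the main signalling genes, and the 5 nearest patterns. Il12a, Cxcl9, Cd274, Wars, Oasl1, Sqstm1, Nbr1, Nlrp3, Ncr1, Klrd1, Ly6c2, Gbp4, Gbp8 to Gbp11, Tgtp1 and the 9930111J21Rik genes were named after their values were seen. Symbols come from the files. The counting script was tested on simulated data. Python 3.11.15, pandas 2.3.3, numpy 2.4.6, matplotlib 3.10.9, Biopython 1.88, R 4.3.3 and limma 3.58.1 were used. The number of arrays limits the precision.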

Additional observations from a re-analysis of the deposited data

How the results depend on the processing

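No paired analysis was possible because each condition had 1 array, and none could be left out. The count of members at least 2-fold lower than PBS was 4 with either urine and became 8 with spike-in scaling. For lpr urine the member count was 3 with detected-probe scaling (9.59% of all genes lower) and quantile normalization (13.0%), where Irgm1 fell short of 2-fold (-0.92 and -0.94). It was 3 with averaged probes (12.3% of all genes) and 5 with the RefSeq probe (12.1%). For MRL/MpJ urine it was 3 with averaged probes (11.4% of all genes) and 5 at 1.5-fold (22.5%). The count of 2 higher members became 0 under median scaling, spike-in scaling and normexp, and 1 where probes were averaged or the RefSeq probe was used, for either urine. Of all genes, 18.5% with lpr urine and 16.9% with MRL/MpJ urine were higher under 75th percentile scaling. These shares were 11.1% and 10.6% with median scaling, 5.50% and 5.68% with spike-in scaling, and 7.32% and 6.97% with normexp. They were 18.5% and 17.2% with averaged probes, and 17.9% and 16.4% with the RefSeq probe. The members' median for lpr urine minus PBS, -0.50, became -0.89 with median scaling, -1.51 with spike-in scaling, -0.38 with the 75th percentile of probes detected on all arrays, -0.34 with normexp and -0.78 with the RefSeq probe. That for MRL/MpJ urine minus PBS, -0.58, became -0.95, -1.48, -0.46, -0.34 and -0.80 in the same order. Between the urines the median of -0.01 became -0.12 with spike-in scaling. Read from its RefSeq probe, Gbp5 stood at -1.28 with lpr urine and -0.96 with MRL/MpJ urine in place of 1.00 and 1.08, and no single member probe passed 2-fold in opposite directions under different settings. Spike-in scaling turned the sign of 10 of 20 pathway list medians against PBS, median scaling of 4, normexp of 3, detected-probe scaling, the mean of probes and the RefSeq probe of 2 each, and quantile normalization of 1. Of all calls for lpr urine against PBS, 60.7% were higher, against 33.5% with median scaling, 11.0% with spike-in scaling, 43.1% with normexp and 69.8% with detected-probe scaling. For MRL/MpJ urine the shares were 60.3%, 33.7%, 12.3%, 45.8% and 68.9%. Which scaling fits these cells was not tested.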

Other observations

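Over the whole array, probes annotated with an Ensembl transcript did not stand systematically above probes of the same gene annotated with a RefSeq transcript. In 2315 genes with both kinds measured on all arrays, the median of Ensembl minus RefSeq probe was -0.004 in the difference of lpr urine from PBS and -0.016 in that of MRL/MpJ urine from PBS, and the Ensembl probe was the higher in 49.8% and 49.4%. The 25th and 75th percentiles were -0.78 and 0.78 for lpr urine and -0.74 and 0.77 for MRL/MpJ urine. For lpr urine minus MRL/MpJ urine those percentiles were -0.19 and 0.17.

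ISRE matches were found in the 250 bases before the start in 8 of 17 type I interferon target genes with an entry, 3 of 6 relatives of the members and 1 of 12 other interferon-gamma targets, beside 7 of 8 members. GAS matches were found in 3, 2 and 3 genes of those lists, beside 4 members. In the signal chain 4 of 11 genes held GAS and 1 held ISRE.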
